A study of Mus musculus with 7 samples.

Results

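The C1q chains and the complement receptors of microglia were followed through single-cell and single-nucleus RNA-seq of the mouse hippocampus. The set holds 8 of the 55536 genes listed in the count files and was chosen by name, with earlier results of these data known. It holds *C1qa*, *C1qb* and *C1qc*, the 3 chains of C1q, and *Itgam* and *Itgb2*, the 2 subunits of complement receptor 3. The others are *C3ar1*, *C5ar1* and *C5ar2*, the receptors for the fragments C3a and C5a. The 4 groups were as follows. WT-veh and WT-PMX were wild-type C57BL6/J littermates, and Arc-veh and Arc-PMX were hemizygous Arctic48 mice that carry a human APP transgene with the Indiana, Swedish and Arctic mutations. PMX205, an antagonist of C5aR1, was given at 20 µg/ml in the drinking water, and vehicle was MilliQ water. The labels give 12 weeks of treatment, while the study's text gives a somewhat shorter span by age. All mice were single housed and 10 months old at the end of treatment.

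Each preparation had 24 wells, 6 per group (3 female and 3 male, named F1 to F3 and M1 to M3). A single-cell well held CD11b-selected cells from hippocampal tissue pooled over 2 to 3 mice, digested with inhibitors of transcription and translation, and a nucleus well held nuclei of frozen hippocampal tissue of 1 mouse with no selection. CD11b is the protein of *Itgam*, so 1 of the members was also the handle of the selection in the single cells.

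C1q is the recognition molecule of the classical complement pathway. In the brain it is made mainly by microglia, it binds synapses and amyloid, and it starts a cascade that deposits C3 fragments and releases the small peptides C3a and C5a. Complement receptor 3, the dimer of Itgam and Itgb2, binds deposited C3 fragments and drives engulfment by microglia. C3aR1 and C5aR1 are G protein-coupled receptors that sense the released peptides, and C5aR2 is the other C5a receptor, which does not couple to G proteins.

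The 3 C1q genes lie side by side on the minus strand of mouse chromosome 4 (GRCm38, GENCODE vM21). *C1qa* spans chr4:136895917-136898803, *C1qc* chr4:136889804-136893065 and *C1qb* chr4:136880129-136886187, with gaps of 2.85 kb between *C1qa* and *C1qc* and 3.62 kb between *C1qc* and *C1qb*. Each has 3 exons, and exons cover 18 to 59.2% of the 3 genes. *Itgam* (chr7:128062640-128118491, plus strand) and *Itgb2* (chr10:77530252-77565708, plus strand) are longer, at 55.9 and 35.5 kb, and exons cover 9.0% and 8.61% of them. *C3ar1* lies at chr6:122847138-122856161, and *C5ar1* (chr7:16246743-16259540) and *C5ar2* (chr7:16234585-16244154) are neighbors 2.59 kb apart, all on the minus strand. *Itgam* overlaps the gene model Gm49368 on its own strand, and *C5ar2* overlaps Gm26473 on its own strand, so reads in these stretches could have been counted for either gene.

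The start regions of 2 adjacent C1q genes and of *Itgam* are shown because these genes rose together in the Arctic nucleus wells described below. Each window runs from 250 bases before to 50 bases after the start site on the gene's strand (RefSeq, GRCm38.p6), and capitals mark the 7 letters GAGGAAG or their reverse complement CTTCCTC, a core bound by PU.1, a transcription factor of microglia and other myeloid cells.
C1qb, chr4:136886151-136886450, minus strand: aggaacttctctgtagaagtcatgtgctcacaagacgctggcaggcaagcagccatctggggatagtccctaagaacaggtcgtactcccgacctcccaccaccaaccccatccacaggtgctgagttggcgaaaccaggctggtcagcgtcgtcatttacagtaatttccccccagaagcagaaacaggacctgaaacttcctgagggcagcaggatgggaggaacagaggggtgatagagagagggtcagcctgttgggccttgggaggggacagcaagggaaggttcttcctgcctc
C1qc, chr4:136892865-136893164, minus strand: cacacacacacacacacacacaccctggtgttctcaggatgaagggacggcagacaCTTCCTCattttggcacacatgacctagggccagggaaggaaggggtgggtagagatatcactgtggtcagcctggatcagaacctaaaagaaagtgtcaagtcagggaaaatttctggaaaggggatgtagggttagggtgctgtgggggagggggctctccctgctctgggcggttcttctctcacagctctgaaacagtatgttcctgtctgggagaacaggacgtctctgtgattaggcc
Itgam, chr7:128062390-128062689, plus strand: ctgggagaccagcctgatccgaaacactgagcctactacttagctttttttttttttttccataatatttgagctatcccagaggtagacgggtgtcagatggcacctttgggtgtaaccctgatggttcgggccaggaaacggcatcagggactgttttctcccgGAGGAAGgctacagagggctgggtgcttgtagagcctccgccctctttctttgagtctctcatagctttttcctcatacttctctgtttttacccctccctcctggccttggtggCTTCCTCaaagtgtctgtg
Of the 8 members 6 had at least 1 window, 7 windows in all. *C1qa* and *Itgb2* were not matched, and the window of *C1qb* holds no match. GAGGAAG was found on either strand in 13.6% of 32851 promoter windows and in windows of 3 members, *C1qc* (at -194 from the start site), *Itgam* (2 matches) and 1 of the 2 windows of *C5ar2*. In all 6 motifs were searched on both strands, and GAGGAAG was kept after the matches had been seen. Of the others, all but the last overlap it in part. GAGGAAGT was in 3.2% of windows and in 1 member, and GGAAGTG in 11% and in 2. AGGAAGT was in 9.35% and in 4 members, *C1qb*, *C1qc*, *C5ar1* and *C5ar2*. The 2 motifs of 10 letters, of which the first is a longer form of GAGGAAG, were in 0.426% and 0.56% of windows and in 0 members. A match describes the letters only.

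The files held 47702 barcodes that passed the filters, 3817 cells and 43885 nuclei, and 3971 barcodes (8217 cells) occurred in more than 1 of the 7 sublibraries. Whole nucleus wells held 4383653 to 29936082 transcripts each, whole single-cell wells with at least 10 cells 6826 to 1426176. Clusters with microglial markers gave 2412 single cells (median of 625.5 transcripts) and 1528 nuclei (median of 1010), and all 12 microglial markers were detected in both, with *Tmem119* at 68.9 CPM (counts in every 1000000 transcripts) in the single cells. In these microglia the macrophage markers *Lyve1*, *Pf4* and *Cbr2* had at most 4 counts in a preparation and of the 6 neutrophil or monocyte markers *S100a8* and *S100a9* had 0, *Ccr2*, *Ly6c2* and *Plac8* at most 10, and *Csf3r* 1641 counts (706.6 CPM) in single cells and 2015 (927 CPM) in nuclei. *Mrc1* and *F13a1* were at 11.2 and 10.8 CPM in single-cell microglia and at 52.4 and 69.9 CPM in microglial nuclei. The 7 macrophage markers together were 0 to 141 CPM in the single-cell wells, and in nuclei 0 to 973 CPM in WT-veh, 0 to 749 CPM in WT-PMX, 0 to 216 CPM in Arc-veh and 60.1 to 374 CPM in Arc-PMX. Their part in the results was not tested. *App*, whose mouse reads can also hold reads of the human transgene, was 444 to 573 CPM in WT and 547 to 797 CPM in Arctic neuronal nuclei (12 wells each), so the groups overlapped. In single-cell microglia the WT-veh well F2 alone among the 5 WT-veh wells had counts of the plaque-response genes *Clec7a* (87.1 CPM), *Cst7* (29.0 CPM) and *Itgax* (131 CPM). These were 6, 2 and 9 counts in 68860 transcripts. The other WT-veh wells had only 8036 to 12442 transcripts, so their 0 counts are close to the limit of detection. The study's reporting summary states that 1 WT sample was set aside as Arctic without naming it. No well was relabeled here, and the *C1qa* value without the single-cell well F2 is given for single-cell microglia. The nucleus well named WT-veh F2 is a separate preparation, and no source used here ties it to the single-cell well of that name.

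Among the nuclei the members were highest in microglia, *Itgb2* aside. *Itgam* was at 622.7 ± 202.8 CPM (SD, n = 21 wells) in microglial nuclei against 0.288 ± 0.348 CPM in neurons and 0.430 ± 1.28 CPM in astrocytes (n = 24 each). The 3 C1q genes together were at 281 ± 124 CPM in microglia, 0.358 ± 0.233 CPM in neurons and 0.446 ± 0.906 CPM in astrocytes. *C3ar1* was at 42.5 ± 27.9 CPM in microglia and at 0.0666 ± 0.0885 CPM in neurons. Each of these genes stood above every other named type by more than its spread over wells. *Itgb2*, the common subunit of the leukocyte integrins, was at 114 ± 47.6 CPM in microglia and at 216 CPM in the single well with enough T cell nuclei, so these 2 types could not be ordered. *C5ar1* (18.98 ± 32.35 CPM) and *C5ar2* (33.03 ± 24.55 CPM) were close to the limit of detection even in microglia, with 33 and 56 nuclei that had a transcript. Behind microglia, among types with several wells, *Itgam* was highest in fibroblast nuclei (16.25 ± 23.8 CPM, n = 12). These cells were named from their own counts, so the order is a description, with no test.

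**Figure D1:**
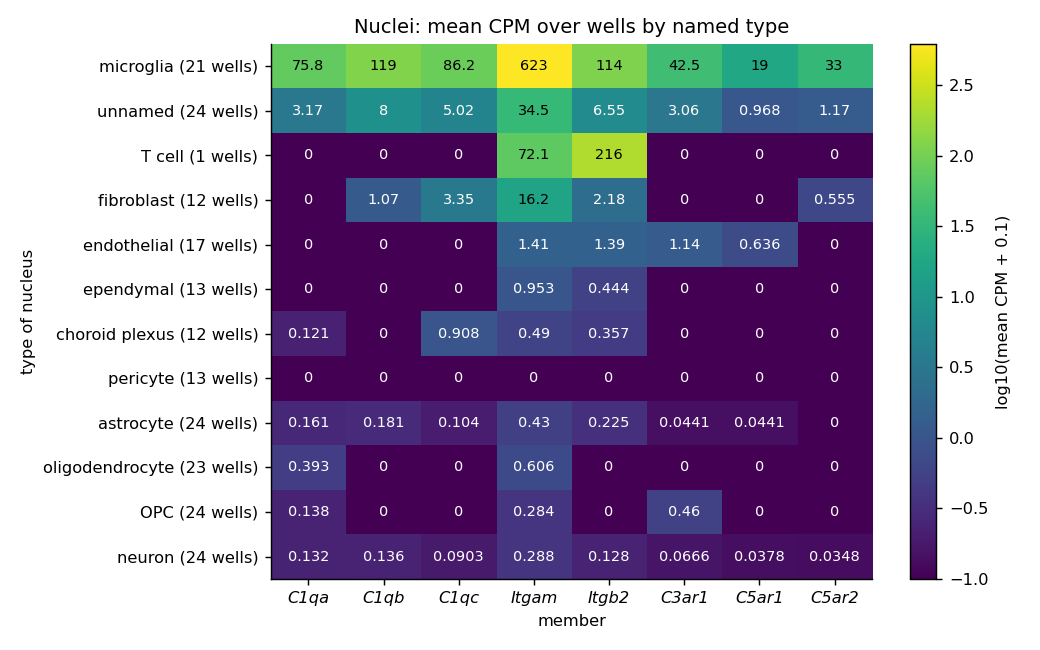
Mean CPM of the 8 members over wells in each named type of nucleus and in the unnamed nuclei, with the number of wells in brackets; color gives log10(mean CPM + 0.1). The row of microglia is the highest for every member but *Itgb2*, which was 216 CPM in the 1 well of T cell nuclei.

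A share of cells with a transcript follows depth. In microglial nuclei 27.4% (exact 95% binomial interval 25.2 to 29.7) had a C1q transcript and 45.0% (42.5 to 47.5) an *Itgam* transcript, against 0.312% and 0.238% of neuronal nuclei, whose median depth was 8361 transcripts. Thinned to 500 transcripts, 11.6% of microglial nuclei had a C1q transcript and 25.8% an *Itgam* transcript. In single-cell microglia 43.3% (41.3 to 45.3) had a C1q transcript, or 34.8% after thinning. Cells of other types in these wells also held the transcripts. C1q was found in 17.96% of endothelial cells (median depth 647) and 23.7% of pericytes (803.5), and after thinning in 9.95% and 12.1%. Among nuclei of these types it was found in 0 of 427 endothelial nuclei and 1 of 313 pericyte nuclei. Intervals cover counting error only.

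Named microglia held 45.7 to 51.8% of each member's counts in the nuclei. They took 51.25% of the *Itgam* counts, 51.1% of *Itgb2*, 48.5% of *C3ar1*, 46.7% of *C5ar1* and 51.8% of *C5ar2*, with 0.683% of all transcripts. Most of the rest lay in 1 cluster of 704 nuclei that carried markers of microglia and of other cells (median of 4277 transcripts) and was therefore left without a name. It held 930 of the 2394 *Itgam* counts and 89, 222 and 151 counts of *C1qa*, *C1qb* and *C1qc*. Of these nuclei 140 were from WT-veh, 123 from WT-PMX, 162 from Arc-veh and 279 from Arc-PMX, while named microglia were 134, 131, 699 and 564.

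By the pattern over 11 named types of nuclei, the genes most like summed C1q were *Ugt1a8* (Pearson r = 0.995), *Milr1* (0.992), *Tlr1* (0.992), *Tyrobp* (0.991) and *Tlr7* (0.990). For *Itgam* they were *Gna15* (0.979), *Csf1r* (0.978), *Ly86* (0.977), *Hpgds* (0.9745) and *Spi1* (0.9715), for *Itgb2* *Epsti1* (0.992), *Ccdc88b*, *Gpr183*, *Rhoh* and *Arhgap30* (0.988), and for *C3ar1* *Ptafr* (0.994), *Hk3*, *Cd22*, *Alox5ap* and *Tifab* (0.980). These 20 genes came from 6505 candidates on log2(mean CPM + 1), the types share wells and libraries, and the values are a description.

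The first comparison asked whether the members differed between Arctic and wild-type hippocampus. In whole nucleus wells, which need no naming of cells, *C1qa*, *C1qb*, *C1qc*, *Itgam*, *Itgb2* and *C3ar1* were all higher in Arc-veh than in WT-veh, by 2.95-fold to 4.83-fold. *C5ar1* and *C5ar2* did not pass the filter on low counts. *C1qa*, *C1qb*, *C1qc*, *Itgb2* and *C3ar1* were at most 0.384, 1.04, 0.74, 1.04 and 0.373 CPM in WT-veh. They needed wells of other groups, mainly Arctic ones, to pass it, and *Itgam* did not. Summed C1q was 1.14, 1.64, 1.48, 1.12, 1.22 and 1.56 CPM in WT-veh wells F1 to M3, and 2.05, 5.295, 7.28, 4.53, 4.59 and 8.60 CPM in Arc-veh wells. Every Arc-veh well was above every WT-veh well, with F1 the lowest. *C1qa* alone, which encodes the A chain, was 0.169 to 0.384 CPM in WT-veh and 0.732 to 1.89 CPM in Arc-veh (log2 fold change 2.17 ± 0.34 SE, adjusted p = 0.00015, by the quasi-likelihood test of edgeR, with p-values adjusted after Benjamini and Hochberg). *C1qb* rose by 2.06 ± 0.37 on the log2 scale (adjusted p = 0.000574 in edgeR) and *C1qc* by 1.56 ± 0.35 (adjusted p = 0.00676 in edgeR), and for these 2 chains the lowest Arc-veh well, F1, fell within the range of WT-veh.

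The receptor genes rose with them. *Itgam* was 2.74, 3.71, 2.81, 3.61, 1.92 and 3.47 CPM in WT-veh and 5.71, 9.36, 16.9, 10.3, 6.24 and 14.2 CPM in Arc-veh, with no overlap (log2 fold change 1.70 ± 0.27, adjusted p = 0.000188 in edgeR). *Itgb2* was 0 to 1.04 CPM in WT-veh and 1.204 to 4.77 CPM in Arc-veh (2.12 ± 0.42, adjusted p = 0.00166 in edgeR), also without overlap. *C3ar1*, the C3a receptor, was 0 to 0.373 CPM in WT-veh and 0.716 to 1.82 CPM in Arc-veh (2.27 ± 0.39, adjusted p = 0.000419 in edgeR). Over all 16454 genes tested 579, or 3.52%, were higher in Arc-veh at this threshold, and the median log2 fold change of all genes was 0.0039 against 2.09 for the 6 members. The members were chosen with earlier results of these data known, and all but *Itgam* passed the filter mainly through Arctic wells, where they are high. Their standing against all genes is therefore a description. Without any 1 well or sublibrary, and under each of the 9 other settings tried, all 6 remained higher.

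The number of microglia moved with this result. Named microglia were 0.965 ± 0.743% of nuclei in WT-veh and 6.94 ± 1.16% in Arc-veh (n = 6 wells each, two-sided exact permutation p = 0.00216, the smallest that 6 against 6 wells allow), and the 12 microglial markers together were 99.8 ± 17.1 and 275.5 ± 98.1 CPM (exact permutation p = 0.00216). The percentages of named microglia leave out the mixed cluster, with 140 nuclei beside 134 named ones in WT-veh and 162 beside 699 in Arc-veh. WT-veh F3 had 0 named microglia and 492 marker transcripts. In whole wells more microglia and more RNA per microglial cell cannot be told apart. Set against the marker transcripts, the differences were smaller. Within named microglial nuclei the markers themselves were lower in Arc-veh (9720 to 13650 CPM) than in WT-veh (15220 to 19010 CPM). The ratios can therefore also move with the markers, and that part was not tested. Per 1000 marker transcripts *C3ar1* was 2.185 ± 1.28 in WT-veh and 4.65 ± 1.10 in Arc-veh (two-sided exact permutation p = 0.00649), *C1qa* 3.12 ± 1.12 and 4.95 ± 1.52 (exact p = 0.0433, the same as for WT-PMX, at 5.06 ± 1.55, against WT-veh), *Itgb2* 5.30 ± 3.03 and 8.95 ± 2.315 (exact p = 0.039), *Itgam* 30.6 ± 5.5 and 37.3 ± 5.3 (exact p = 0.0584), *C1qb* 5.48 ± 2.68 and 8.70 ± 2.62 (exact p = 0.0671), and *C1qc* 5.39 ± 2.84 and 5.69 ± 1.36 (exact p = 0.814). The ranges of both groups overlapped for each of the 6. These are 6 of 24 such tests, the lowest Benjamini-Hochberg adjusted p over the 24 was 0.148, and against *Csf1r* and *Inpp5d* alone 0 of the 6 stayed below 0.05. Leaving out 1 well gave between 1 and 5 of the 6 below 0.05, with 1 left without WT-veh F2, Arc-veh F2 or Arc-veh F3.

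**Figure D2:**
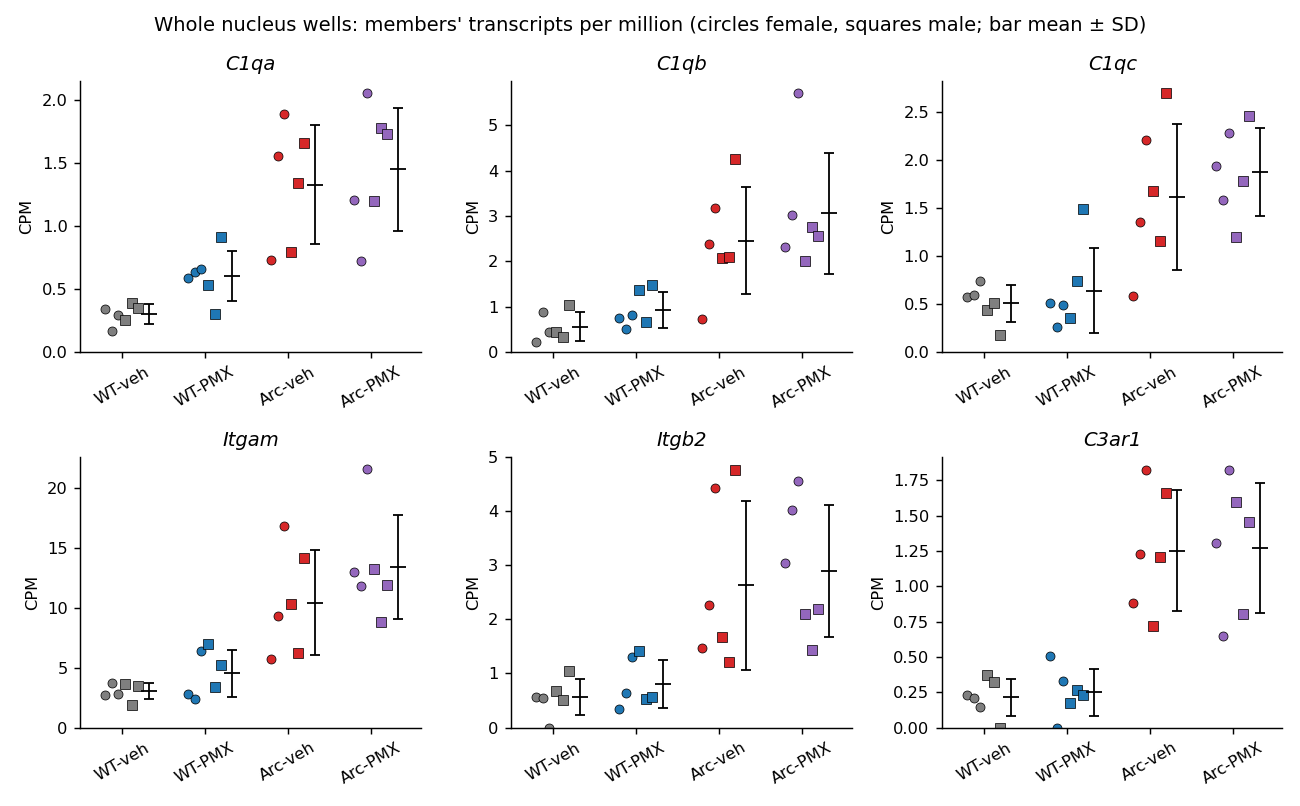
CPM of 6 members in the 24 whole nucleus wells by group; circles are female and squares male wells, bars are mean ± SD. Both Arctic groups lie above both WT groups for *Itgam*, apart from overlap at WT-PMX M1 (7.02 CPM) and F3 (6.375 CPM) with the lowest Arc-veh wells, and the 2 Arctic groups overlap for every member.

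**Figure D3:**
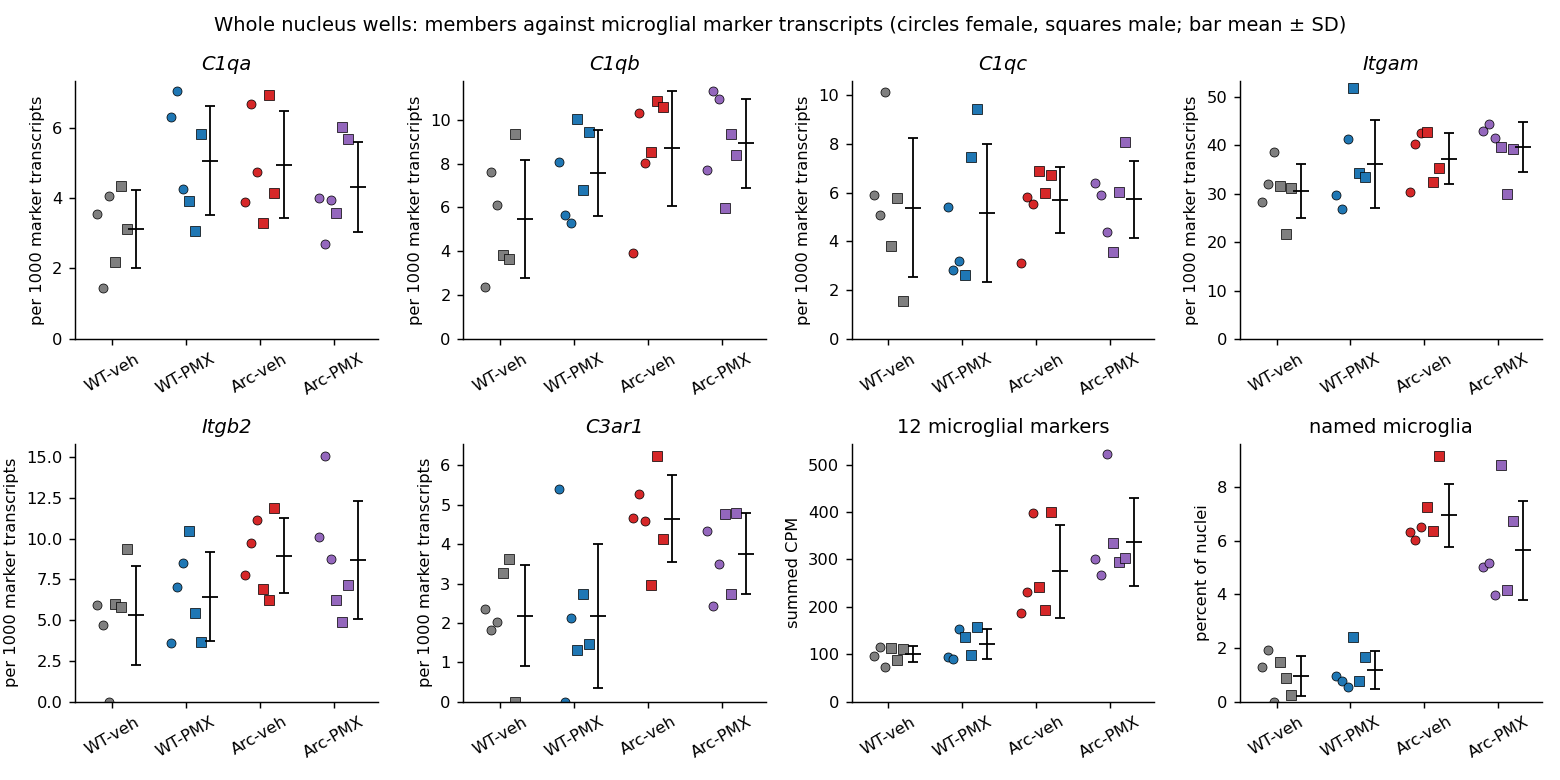
Members per 1000 transcripts of 12 microglial markers in whole nucleus wells, with the summed CPM of the markers and the percent of nuclei named microglia in the last panels; circles are female and squares male wells, bars are mean ± SD. The members overlap between WT-veh and Arc-veh, and the percent of named microglia (0.965 and 6.94% on average) does not.

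Within named microglial nuclei the members did not pass the test. Only *C1qb*, *Itgam* and *Itgb2* had enough counts to be tested, over 12 Arctic wells (6 with PMX205) and 9 WT wells (5 with PMX205). Arc-veh minus WT-veh was -0.27 ± 0.56 for *C1qb*, -0.33 ± 0.24 for *Itgam* and 0.33 ± 0.50 for *Itgb2* on the log2 scale (adjusted p = 0.464 to 0.851 in edgeR), where 9.38% of 2431 genes were called in either direction. Summed C1q was 362, 426, 91.25 and 327 CPM in the WT-veh wells F1, F2, M1 and M2, from 6, 18, 3 and 5 counts. The Arc-veh wells had 151, 290, 204, 305.5, 335 and 221 CPM, from 11 to 63 counts, and lay inside that range. The outcome depended on which nuclei were called microglia. With the mixed cluster added (2232 nuclei, a setting chosen after the data had been seen), Arc-veh was higher for *C1qa* (log2 fold change 1.77 ± 0.44, adjusted p = 0.00427 in edgeR), *C1qb* (1.38 ± 0.38, adjusted p = 0.00997) and *C3ar1* (1.53 ± 0.45, adjusted p = 0.0172), while *Itgam* (0.79 ± 0.28, adjusted p = 0.0501), *Itgb2* (1.17 ± 0.48, adjusted p = 0.0923) and *C1qc* (0.74 ± 0.37, adjusted p = 0.183) were not called. In that fit 9.52% of 6441 genes were higher. The mixed cluster also holds markers of other cells, and it added 140 nuclei to 134 in WT-veh and 162 to 699 in Arc-veh. Each member was lower in it than in named microglial nuclei, such as *C1qa* (14.66 against 64.41 CPM). *C1qb* was at 36.58 against 112.2 CPM and *Itgam* at 153.2 against 564.5 CPM. Its nuclei were also deeper (median of 4277 against 1010 transcripts). The added nuclei therefore weigh more in WT-veh than in Arc-veh, and their part in these calls was not tested. In named microglia alone, leaving out the WT-veh nucleus well F2 turned *C1qb* from -0.27 to 1.36 ± 0.82 (adjusted p = 0.477 in edgeR).

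In whole single-cell wells the C1q chains were higher in Arc-veh as well, and so was the number of named microglia, with 169 of 488 cells in WT-veh and 1344 of 1705 in Arc-veh, so that their number and the RNA in each cannot be told apart here either. *C1qa* differed by 2.46 ± 0.59 on the log2 scale (adjusted p = 0.00811 in edgeR), *C1qb* by 2.29 ± 0.48 (adjusted p = 0.00419) and *C1qc* by 2.74 ± 0.65 (adjusted p = 0.00765), while *Itgam* was at 0.73 ± 0.34 (adjusted p = 0.155), the 4 members that could be tested. In this contrast 6.46% of 2787 genes were higher. *C1qa*, *C1qb* and *C1qc* were at most 256, 128 and 154 CPM in WT-veh. They passed the filter on low counts mainly through Arctic wells. When no filter was applied, over 21144 genes, *C3ar1* was at 2.32 ± 0.65 (adjusted p = 0.0129 in edgeR) and *Itgb2* at 1.93 ± 0.56 (adjusted p = 0.0174). *Itgam*, *C5ar1* and *C5ar2* had adjusted p of 0.121 to 0.953 in that edgeR fit. It gave lower adjusted p-values than the main fit for every member tested in both, such as 3.69e-07 for *C1qa* in edgeR against 0.00811. The share of all genes called without the filter is not given here. Without the WT-veh well F1 *C1qa* was at 2.02 ± 0.63 (adjusted p = 0.0547 in edgeR) *C1qb* was still called (2.13 ± 0.54, adjusted p = 0.0212), and *C1qc* no longer passed the filter. A fit of the 2 groups alone could test only *C1qa* and *Itgam* of the members and called *C1qa* (2.20 ± 0.48, adjusted p = 0.00894 in edgeR).

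The level within single-cell microglia turned on few wells. Summed C1q was 2120 CPM in Arc-veh F1 (530 cells) and 1528 CPM in M2 (469 cells). The other Arc-veh wells F2, F3 and M3 had 394.5, 711 and 661 CPM, and the 5 WT-veh wells 261 to 724.5 CPM. So F1 and M2 stood above all WT-veh wells, and the remaining 3 lay within their range. The upper end of that range was WT-veh F3, with 6 counts in 18 cells. The other WT-veh wells had 261 to 402 CPM, from 3 to 18 counts, and Arc-veh F3 (14 counts) and M3 (17 counts) lay above those. Arc-veh minus WT-veh was 2.30 ± 0.70 for *C1qa* (adjusted p = 0.0578 in edgeR), 1.72 ± 0.59 for *C1qb* (adjusted p = 0.0949) and 0.06 ± 0.31 for *Itgam* (adjusted p = 0.963), with 3.28% of 1129 genes called in either direction. *C1qa* and *C1qb* passed the filter there mainly through Arctic wells. Whether a member was called depended on the setting. Scaling by relative log expression, a minimum of 5 cells per well, clustering with the members or naming by marker score each called 1 member. Without the filter, over 17906 genes, all 3 chains were called (2.64 ± 0.52, 2.10 ± 0.51 and 2.49 ± 0.56 for *C1qa*, *C1qb* and *C1qc*, adjusted p = 0.00042, 0.0124 and 0.00392 in edgeR). The share of all genes called under these settings is not given here, and 3.28% holds for the main fit alone. With more than 500 transcripts and genes per cell *C1qa* was at 3.64 ± 1.15 (adjusted p = 0.57 in edgeR). Without F1 and M2, a choice made after the data had been seen, *C1qa* was at 1.10 ± 0.75 (adjusted p = 0.695 in edgeR). Without the WT-veh well F2 it was at 1.60 ± 0.82 (adjusted p = 0.269), and without the Arc-veh well F2 it was called at 2.71 ± 0.62 (adjusted p = 0.00707), as was *C1qb* at 2.08 ± 0.53 (adjusted p = 0.0173). Arc-veh F2 had 288900 CPM of transcripts linked to ribosomal RNA, such as *Lars2* and *Gm15564*, against 46180 to 109200 CPM in the other Arc-veh wells. With these transcripts removed *C1qa* was at 2.32 ± 0.67 (adjusted p = 0.0375 in edgeR).

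C1q was highest in 2 clusters of single-cell microglia. Cluster 1 (416 cells, 260 of them from Arc-veh F1 and 84 from M2) had 791, 515 and 488 CPM of *C1qa*, *C1qb* and *C1qc*, and cluster 5 (372 cells, 192 from M2 and 128 from F1) had 1074, 751 and 623.5 CPM. The other 5 microglial clusters had 180 to 349 CPM of *C1qa*. *Itgam* did not separate them, at 488 and 623.5 CPM in the former and 370.5 to 691 CPM in the latter. Clusters 1 and 5 also had the most *Apoe* (3834 and 3546 CPM against 319 to 909 CPM), *Cst3*, *Ctss* and *Lyz2*. WT-veh gave 1 cell of cluster 1 and 3 of cluster 5, and WT-PMX gave 0. Clusters were drawn without the 8 members. Cells of other types carried C1q in the same wells in part. Endothelial cells, pericytes and astrocytes of Arc-veh F1 together had 229 C1q counts (786 CPM, 123 cells), those of M2 had 0 counts in 13654 transcripts (15 cells), and the other wells with at least 10 such cells had 0 to 377 CPM. The microglial marker *Cx3cr1* was in these same cells at 968 CPM in Arc-veh F1, 0 CPM in M2 and 180 to 1177 CPM in the other wells. In single-cell microglia it was at 1546 CPM. The part of transcripts from outside the cell in these levels was not tested.

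**Figure D4:**
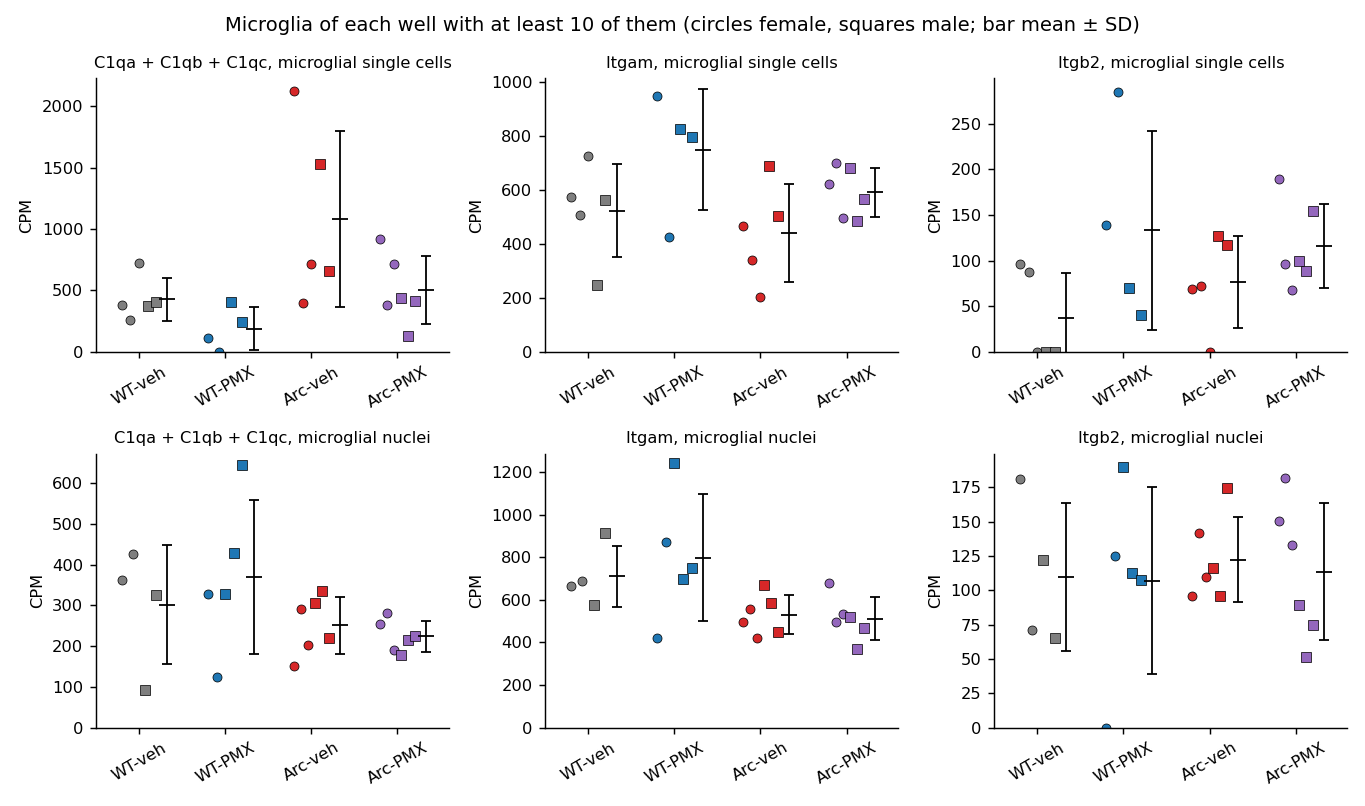
CPM of summed C1q, *Itgam* and *Itgb2* in the microglia of each well with at least 10 of them, single cells above and nuclei below; circles are female and squares male wells, bars are mean ± SD. In single cells Arc-veh F1 (2120 CPM) and M2 (1528 CPM) stand above all other wells for C1q, and in nuclei the groups overlap.

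The second comparison asked whether PMX205 changed the members in Arctic mice. In whole nucleus wells it did not reach the threshold for any gene: 0.0% of 16454 genes were called by edgeR between Arc-PMX and Arc-veh, with 262 at an unadjusted p under 0.05, of which 0 were members. The 6 members differed by -0.07 ± 0.31 (*C3ar1*) to 0.32 ± 0.25 (*Itgam*) on the log2 scale, and the 3 C1q chains by 0.05 ± 0.27, 0.23 ± 0.30 and 0.19 ± 0.30. Summed C1q in the Arc-PMX wells was 5.46, 5.32, 10.04, 4.397, 6.29 and 6.73 CPM, inside the range of the Arc-veh wells but for F3. DESeq2 also called 0 of the members. Arc-PMX remained above WT-veh for all 6 members, by 1.75 ± 0.35 (*C1qc*) to 2.29 ± 0.37 (*C1qb*) on the log2 scale (adjusted p = 1.5e-05 to 0.00171 in edgeR), where 4.23% of all genes were higher. In a fit of these 2 groups alone *C1qa* and *C3ar1* did not pass the filter, and the 4 members tested were called. The share of all genes called in that fit is not given here. These 2 Arctic groups were set against the same WT-veh wells. Per 1000 marker transcripts the 6 members differed between Arc-PMX and Arc-veh by exact permutation p of 0.182 (*C3ar1*, 3.75 ± 1.03 against 4.65 ± 1.10) to 0.963 (*C1qc*).

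In single-cell microglia the C1q values were lower in Arc-PMX than in Arc-veh but did not pass the test. The Arc-PMX wells F1 to M3 had 922, 383, 717.5, 436, 133 and 413 CPM of summed C1q, all below the Arc-veh wells F1 and M2 and spread around the other 3. *C1qa* was at -1.31 ± 0.40 on the log2 scale (0.402-fold, unadjusted p = 0.0025, adjusted p = 0.197 in edgeR) and *C1qb* at -1.31 ± 0.36 (0.403-fold, unadjusted p = 0.00104, adjusted p = 0.174). *Itgam* was at 0.20 ± 0.24 (adjusted p = 0.741). Over all 1129 genes 0 were called by edgeR, with 102 at an unadjusted p under 0.05. Without the Arc-veh well F2 both *C1qa* and *C1qb* were called (adjusted p = 0.0161 in edgeR), without F1 they were at -0.89 ± 0.45 and -0.76 ± 0.40 (adjusted p = 0.992), and without F1 and M2 *C1qa* was at -0.05 ± 0.535 (adjusted p = 0.999). In whole single-cell wells the 3 chains were at -1.27 ± 0.45, -1.32 ± 0.37 and -1.67 ± 0.47 (adjusted p = 0.869 in edgeR for each). *C1qc*, too sparse for the filter in microglia, was at -1.82 ± 0.37 (adjusted p = 0.00192 in edgeR) when no filter was applied. In that fit *C1qa* and *C1qb* also had lower adjusted p-values than with the filter (0.0734 and 0.139 in edgeR). Of the 601 *C1qc* counts in Arc-veh microglia, F1 held 445 and M2 120. The other Arc-veh wells were at 101 to 117 CPM, and the Arc-PMX wells at 22.1 to 271 CPM. The difference between single cells and nuclei in the effect of PMX205 was not tested.

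Of single-cell microglia 57.96% in Arc-veh, 29.15% in Arc-PMX, 17.75% in WT-veh and 15.34% in WT-PMX had a C1q transcript. Thinned to 500 transcripts, 44.3% of 1027 Arc-veh microglia had a C1q transcript, 22.9% of 459 in Arc-PMX, 16.5% of 85 in WT-veh and 10.0% of 110 in WT-PMX, after 317, 251, 84 and 79 shallower cells had been left out. *Itgam* was found in 22.98, 24.2, 24.7 and 28.2%. In nuclei the C1q shares were 28.18% (Arc-veh), 26.42% (Arc-PMX), 20.9% (WT-veh) and 34.35% (WT-PMX) before thinning and 11.45, 10.1, 16.0 and 14.7% after it, so that Arc-veh was above WT-veh before and below it after. In Arc-veh the wells F1 and M2 gave 530 and 469 of the 1344 single-cell microglia and 1600 and 506 of their C1q counts, against 121 counts in the 265 cells of F2, so these shares rest mostly on those wells. In WT-veh the well F2 gave 94 of the 169 cells. Cells of 1 well are not replicates, so the shares carry no test.

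In wild-type mice edgeR called 0 members between WT-PMX and WT-veh. In whole nucleus wells *C1qa* was at 0.91 ± 0.39 on the log2 scale (unadjusted p = 0.027, adjusted p = 0.986 in edgeR), and 0 of 16454 genes were called, with 655 at an unadjusted p under 0.05. By the exact permutation test over the same wells *C1qa* was 0.298 ± 0.0787 CPM in WT-veh and 0.604 ± 0.1985 CPM in WT-PMX, with overlap (p = 0.00866, adjusted p = 0.016 over 24 tests of members). Those 24 tests include the Arctic groups against WT-veh, many at an exact permutation p of 0.00216, which lowers the adjusted p here. Against *Csf1r* and *Inpp5d* alone the exact p of *C1qa* was 0.193. The difference of the PMX205 effect between genotypes was -0.86 ± 0.47 for *C1qa* (adjusted p = 0.999 in edgeR) and called 0 genes in each of the 4 fits, with 381 (whole nucleus wells), 103 (microglial nuclei), 80 (single-cell microglia) and 111 (whole single-cell wells) at an unadjusted p under 0.05. Between sexes edgeR called 0 members in any fit, beside 12 of 16454 genes in whole nucleus wells and 2 of 2787 in whole single-cell wells. In microglial nuclei 3 of 2431 genes were called, and in single-cell microglia 1 of 1129. Male minus female was -0.20 ± 0.28 (*Itgb2*) to 0.17 ± 0.24 (*C1qc*) in whole nucleus wells. At an unadjusted p under 0.05 in edgeR there were 0 members, beside 2390, 55, 136 and 32 genes in these fits in turn.

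*C5ar1*, the target of PMX205, and *C5ar2* were too sparse for the filter in each of the 4 fits. In whole nucleus wells *C5ar1* was 0, 0.0843, 0, 0.124, 0 and 0.174 CPM in WT-veh and 0.146, 0.258, 1.04, 0.636, 0.134 and 0.622 CPM in Arc-veh, with overlap at the lowest Arc-veh wells. Without the filter it was called there between these groups (log2 fold change 2.66 ± 0.65, adjusted p = 0.00286 in edgeR), while *C5ar2* was at 1.03 ± 0.52 (adjusted p = 0.477). The adjusted p-values of edgeR were lower in that fit than with the filter for every member tested in both. In microglial nuclei *C5ar1* had 35 counts over all wells and *C5ar2* 58, and in single-cell microglia 25 and 41. *C5ar1* was at 0 in all 4 WT-veh wells of microglial nuclei, with an exact 95% Poisson upper limit of 34.5 CPM over their 106979 transcripts, and at 0 to 36.4 CPM in Arc-veh and 0 to 29.8 CPM in Arc-PMX. The WT-PMX wells F1 and F2 had 93.4 and 124.9 CPM, above every Arctic well, from 2 counts and 1 count, and the other 3 used WT-PMX wells had 0. In single-cell microglia *C5ar1* was at 0 in all 9 WT wells (upper limit 15.4 CPM) and at 12.1 CPM (7.82 to 17.8) over the 11 Arctic wells. Without the filter, Arc-PMX minus Arc-veh was -0.35 ± 0.58 for *C5ar1* and 0.55 ± 0.51 for *C5ar2* in microglial nuclei (adjusted p = 0.978 and 0.867 in edgeR), and -1.04 ± 0.66 and -0.51 ± 0.61 in single-cell microglia (adjusted p = 0.762 and 0.772 in edgeR).

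The third comparison set whole cells against nuclei. In Arctic microglia the C1q chains were higher in single cells, and the receptors were not called. Over 23 wells and 3883 genes *C1qa* was 6.63-fold higher (log2 2.73 ± 0.31, adjusted p = 2.14e-08 in edgeR), *C1qb* 2.98-fold (1.58 ± 0.26, adjusted p = 1.1e-05) and *C1qc* 2.96-fold (1.56 ± 0.31, adjusted p = 0.000114), while *Itgam* was at 0.25 ± 0.14 (adjusted p = 0.17), *C3ar1* at 0.10 ± 0.27 (adjusted p = 0.826) and *Itgb2* at -0.15 ± 0.22 (adjusted p = 0.648). In this contrast 641 genes, or 16.5%, were higher in single cells. Scaled by library size alone the same 3 genes were called, and the median over all genes moved from -0.06 to -0.35. Without Arc-veh F1 and M2 *C1qa* was at 2.07 ± 0.30 (adjusted p = 2.55e-06 in edgeR), *C1qb* at 0.94 ± 0.25 (adjusted p = 0.00341) and *C1qc* at 0.68 ± 0.28 (adjusted p = 0.0555). Microglial markers moved in both directions, with *Cx3cr1* at 1.03 ± 0.13 and *Inpp5d* at -0.52 ± 0.12. The 2 preparations hold whole cells or nuclei. They also differ in the mice pooled, the freezing of the tissue, the selection and the digestion, and these cannot be told apart.

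The make-up of C1q differed too. In the protein the 3 chains occur in equal number. Among Arctic wells with at least 20 C1q counts in microglia, *C1qa* took 42.4, 42.2 and 43.9% of the counts in the Arc-veh single-cell wells F1, F2 and M2, and 29.4, 42.5, 67.2 and 42.1% in the Arc-PMX wells F1, F2, F3 and M1. In nuclei it took 18.8 to 38.1% over 10 wells. The mean share was 44.2 ± 11.3% (SD) over 7 single-cell wells and 26.5 ± 5.9% over 10 nucleus wells, a difference of 17.8 percentage points (two-sided exact permutation p = 0.000257, adjusted p = 0.00231 over 9 such exact tests). It was 13.95 to 20.2 points when 1 well was left out. *C1qb* took 32.9 ± 6.0% in single cells and 42.1 ± 9.8% in nuclei (exact permutation p = 0.0475, adjusted p = 0.142), and *C1qc* 22.8 ± 6.4% and 31.4 ± 6.9% (exact permutation p = 0.0192, adjusted p = 0.0864). The unadjusted p of *C1qb* was below 0.05 in 5 of the 17 tests without 1 well. With cells named by their highest marker score *C1qb* passed (exact permutation p = 0.00836, adjusted p = 0.0376) and *C1qc* had an exact permutation p of 0.0628, and with at least 10 counts per well *C1qb* had an exact permutation p of 0.0518. *C1qa* passed in both settings. Shares did not differ detectably between Arc-PMX and Arc-veh in either preparation (exact permutation p = 0.429 to 0.914 with 7 single-cell wells, 0.5 to 0.714 with 10 nucleus wells). WT wells, but for 1, had fewer than 20 counts.

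**Figure D5:**
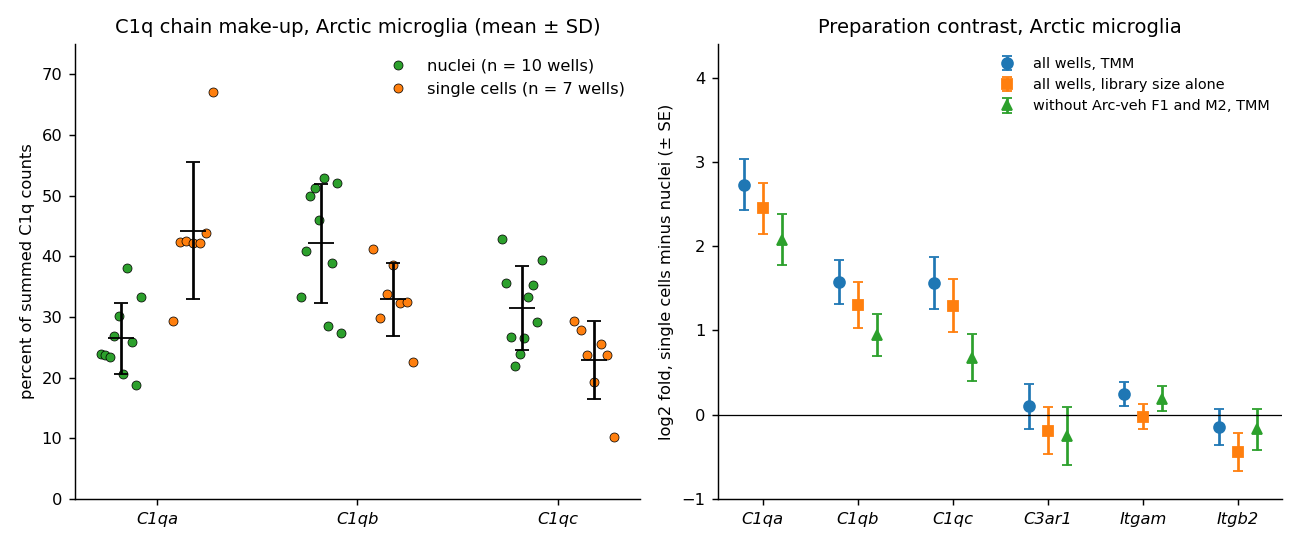
Left, percent of summed C1q counts from each chain in Arctic microglia, 1 point per well with at least 20 counts and bars of mean ± SD; right, log2 fold of single cells minus nuclei ± SE in 3 settings. *C1qa* takes 44.2% in single cells and 26.5% in nuclei on average, and the 3 C1q chains lie above 0 in each setting while *C3ar1* and *Itgam* lie on both sides of 0 and *Itgb2* below it.

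Among 47 other complement genes few could be tested in microglia. In microglial nuclei 8 were tested and 3 passed between Arc-veh and WT-veh, beside 9.38% of all genes. *Itgax*, the alpha subunit of complement receptor 4, rose by 3.87 ± 0.83 on the log2 scale (adjusted p = 0.00371 in edgeR), *Colec12*, a scavenger receptor of the collectin family, rose by 2.69 ± 0.80 (adjusted p = 0.0329), and *Csmd3*, a large membrane protein with complement control domains, fell by 0.87 ± 0.16 (adjusted p = 0.000469). The median of the 8 was 0.55, against 0.05 for all genes tested. In single-cell microglia 4 were tested and 0 passed (edgeR), from -0.61 ± 0.43 (*Csmd1*) to -0.14 ± 0.25 (*Csmd3*). PMX205 moved 0 of them past the threshold in Arctic microglia of either preparation (edgeR, 0 at an unadjusted p under 0.05 in each). By mean CPM *Csmd3* and *Lrp1* were among the 3 highest of the list in both preparations, and *Csmd1* in nuclei. In whole nucleus wells 7 of 28 tested were higher in Arc-veh, among them *C3*, *C4b* and *Serping1*, and 0 were lower, beside 3.52% of all genes that were higher.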

How the data were processed

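RNA was measured by split-pool barcoding, in which 48 wells, 1 sample each, were mixed and split into 7 sublibraries, so that every deposited sample holds barcodes of all groups. The deposited counts are whole-number transcript counts per gene and barcode that the authors made with split-pipe on mm10, after bcl2fastq, per the labels and methods. They were used as deposited, and wells were mapped to groups by the authors' sample sheet. All measured columns mapped to wells (0 columns were left out).

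Cells were kept with more than 300 and fewer than 50000 transcripts, more than 300 genes and less than 10% mitochondrial counts, nuclei with more than 400 genes and less than 1%. Barcodes with a Scrublet score above 0.25 were removed. Cells were clustered by Leiden on 2000 variable genes and 30 components (scanpy 1.11.5, resolution 1.0 for cells and 1.5 for nuclei) without the 8 members, and clusters were named from marker lists. A cluster whose leading genes were higher in another type stayed unnamed, a rule chosen after the data had been seen. Counts were summed per well, with at least 10 cells per well. CPM are counts in every 1000000 of the well's summed transcripts.

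Comparisons used edgeR 4.0.16 (TMM, filterByExpr, quasi-likelihood, group and sex as terms, all groups in 1 fit, R 4.3.3), with Benjamini-Hochberg adjustment over all genes tested and a threshold of 0.05, and exact two-sided permutation over wells for single values. SE is the log2 fold change over the square root of F. The fits were tested on simulated data. Other settings, DESeq2 1.42.0 among them, are given with the limits. The well is the replicate. P-values measure the spread between wells, and intervals and limits for 0 counts cover counting error only. The members and lists were chosen with earlier results of these data known. Other genes named are complement genes that passed the test in microglia or were among the 3 highest there, and the 5 genes most like a member over named nucleus types among those with at least 50 counts in microglial nuclei; marker, plaque-response and cluster genes, and the 3 complement genes named for whole nucleus wells, were added as descriptions after their values were seen. Same-numbered wells of different groups were not treated as pairs. Protein sequences were not used here, and some genes that this rule covers are not reported here.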

Additional observations from a re-analysis of the deposited data

Results flagged for a closer look

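Of 64 groups of 4 to 6 wells looked at for a single well far from the others by Dixon's criterion, 4 held one, and chance gives about 1 in 20. *Itgb2* was 110.3 CPM in the whole single-cell well Arc-PMX M2, where the next well had 79.94 and the lowest 62.53 CPM. *C3ar1* was 17.24 CPM in the microglial nuclei of WT-PMX M1 and 0 in the other wells of that group, a level set by very few counts. Summed C1q was 3.883 CPM in the whole nucleus well WT-PMX M3, with the next well at 2.241 and the lowest at 1.395 CPM. *Itgam* was 21.67 CPM in the whole nucleus well Arc-PMX F3, with the next well at 13.29 and the lowest at 8.811 CPM.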

How the results depend on the processing

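In whole nucleus wells Arc-veh minus WT-veh kept 6 or more members called in all settings, and Arc-PMX minus WT-veh 4 to 6. The settings with the mixed cluster, without Arc-veh F1 and M2, or without ribosomal RNA-linked transcripts were chosen after seeing the data, and the cause of the changes below was not tested. In microglial nuclei (Arc-veh minus WT-veh, log2) *C1qb* was 0.0508 without the filter, 1.3825 with mixed clusters and 0.7938 with cells named by marker score, *Itgam* 0.0327, 0.7922 and 0.5090, and 3 members were called with mixed clusters. With doublets kept *Itgam* was 0.0525 for Arc-PMX minus Arc-veh. In single-cell microglia Arc-veh minus WT-veh called 1 member with RLE scaling, the replicate block, at least 5 cells, members kept in the clustering, the marker score or ribosomal RNA-linked transcripts removed, and 3 without the filter, against 0. *Itgam* was there -0.0568 in the 2 groups alone, -0.1330 above 500 transcripts and genes, -0.2335 by marker score and -0.2204 without F1 and M2. Arc-PMX minus Arc-veh called 1 there without the filter and 1 above 500. In whole wells *C3ar1* was 0.3056 (nuclei) and *Itgam* -0.2487 (single cells) for Arc-PMX minus Arc-veh with every barcode. Whole single-cell wells called 5 (no filter, over 21144 genes), 1 (2 groups alone) and 5 (every barcode) of the members in Arc-veh minus WT-veh, against 3, and 1 in Arc-PMX minus Arc-veh without the filter. Among these other settings the share of all genes called is given for the mixed clusters alone. Per marker transcripts Arc-veh minus WT-veh passed an unadjusted 0.05 for 0 members against *Csf1r* and *Inpp5d* and 6 by CPM, against 3; Arc-PMX minus WT-veh for 0 and 6, against 3; WT-PMX minus WT-veh for 0 against *Csf1r* and *Inpp5d*, against 1. Single cells minus nuclei gave *C3ar1* -0.1893 and *Itgam* -0.0244 by library size, *C3ar1* -0.2525 without F1 and M2, and 2 members called there. Thinning moved the shares with a transcript to 34.8% (C1q) and 23.74% (*Itgam*) in single cells and 11.63% and 25.78% in nuclei.

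With 1 well left out, log2 values for Arc-PMX minus Arc-veh ran in whole nucleus wells from -0.1275 to 0.2119 (*C1qa*), -0.2621 to 0.1766 (*C3ar1*) and -0.0747 to 0.341 (*Itgb2*), in microglial nuclei from -0.3279 to 0.004 (*C1qb*) and -0.1863 to 0.0591 (*Itgam*), and in whole single-cell wells from -0.0603 to 0.2689 (*Itgam*). For Arc-veh minus WT-veh they ran from -0.6494 to 1.3647 (*C1qb*, microglial nuclei) and -0.1255 to 0.1877 (*Itgam*, single-cell microglia). Members called were 0 to 2 in single-cell microglia in both contrasts and 1 to 3 in whole single-cell wells (Arc-veh minus WT-veh), and per marker transcripts 1 to 5 (Arc-veh minus WT-veh), 1 to 3 (Arc-PMX minus WT-veh) and 0 to 1 (WT-PMX minus WT-veh). The share of all genes called with 1 well left out is not given here, so these counts describe the members alone.

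For wells with the same number the median correlation of their deviations was -0.017 to 0.088 over the 4 fits. In whole nucleus wells it was 0.088, against 0.052 for other numbers of the same sex. There 16 of 36 pairs were over 0.1, up to 0.529, and 9 of 24 wells were most like a well of their own number. With the replicate block *C1qa* in single-cell microglia was 1.9468 (adjusted p = 0.0405, edgeR) for Arc-veh minus WT-veh, and no other count of called members changed. *C5ar1* and *C5ar2* are limited by depth.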
